A study of Homo sapiens with 6 samples.

Results

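The enzymes that turn squalene into cholesterol were examined in LX-2 cells, an established human line derived from hepatic stellate cells (HSCs), which lay down collagen in the injured liver. The arm was represented by 9 genes, SQLE, LSS, CYP51A1, TM7SF2, MSMO1, NSDHL, EBP, SC5D and DHCR7, chosen by gene name from the 33900 genes of the deposited table, and every name had its row. The cells, of genotype WT in both groups, were kept in medium with serum and received rhSema3C (recombinant human Sema3C, a secreted semaphorin) at 300 ng/ml or PBS for 48 h, with 3 biological replicates per treatment. The comparison asked how rhSema3C changes gene expression in HSCs, and here it was followed step by step along this arm. LX-2 is a single cell line, and the sources used here do not say whether the replicates came from separate cultures, so the p-values measure the spread between these samples only.

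Cholesterol is made in the endoplasmic reticulum in a mevalonate arm, which builds squalene from acetyl-CoA, and a sterol arm, which oxidises squalene, closes its rings and then trims and rearranges the product until cholesterol is reached. Many genes of both arms are known targets of the SREBP transcription factors, which leave the endoplasmic reticulum when sterols are low. In the liver, HSCs store retinol esters in lipid droplets and lose them on activation.

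Expression rose with rhSema3C at 8 of the 9 steps. The largest rises were those of MSMO1, which oxidises the methyl groups on the first sterol ring, and of CYP51A1, the P450 that demethylates lanosterol, at 2.72-fold and 2.28-fold. EBP, the isomerase that shifts a double bond within the sterol nucleus, was the exception, with a fold change between 0.926 and 1.09 (95% interval). None of the 9 fell. At an adjusted p below 0.05, 8 members were higher and 0 were lower, against 32.2% higher and 30.8% lower among all 14178 genes tested. No member was lower at an unadjusted p below 0.05, and the count of lower members was also 0 with DESeq2 and with limma on log2(FPKM + 1). The number of higher members was 8 with DESeq2 and 9 with limma. At a fold change above 2 as well, 3 members were higher (MSMO1, CYP51A1 and SC5D), against 3.23% of all genes tested. The 3 rhSema3C samples lay above the 3 PBS samples without overlap for 8 members, against 34.6% of all genes tested. The median log2 fold change was 0.66 over the 9 members and 0.02 over all genes tested.

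Depth was similar in the groups, with total counts from 68267808 to 89245585 in the PBS samples and from 80313774 to 88518639 in the rhSema3C samples. The TMM factors, which scale for differences in RNA composition, lay between 0.958 and 0.968 with PBS and between 1.03 and 1.04 with rhSema3C. The deposited FPKM values (fragments scaled to gene length and library size) do not contain that factor, so FPKM ratios between the groups lay above the fold changes fitted to the counts. For MSMO1 the log2 ratio of mean FPKM was 1.55 and the fitted log2 fold change 1.44. Fold changes below are those fitted by edgeR, and levels are FPKM unless another scale is named. The label of the cells was checked against 9 stellate cell markers, of which 6 passed the filter on low genes. VIM measured 814 to 1070 FPKM over the 6 samples, but COL1A2 stayed at or below 0.144, LRAT at or below 0.00573 and DES at or below 0.0557, so these defining markers were at or near 0. The summed level of the 9 markers was 1380 to 1440 FPKM with PBS and 1090 to 1150 with rhSema3C. COL1A1, a collagen chain, fell by 0.78 on the log2 scale. For the others that passed the filter, the log2 fold changes were -0.56 for ACTA2, -0.43 for TIMP1, -0.41 for VIM and -0.36 for COL3A1. PDGFRB, at 0.09, did not pass the test (adjusted p = 0.29). Markers of other cells were near 0 (ALB, EPCAM, PTPRC and CDH5 each below 0.05 FPKM) or low, apart from CD68, which is not restricted to leukocytes. CD68 fell, measuring 90.2 to 98 FPKM with PBS and 63.6 to 69.8 FPKM with rhSema3C (log2 fold change -0.58, adjusted p = 9.9e-10). SERPINA1, a hepatocyte product, rose, measuring 2.58 to 3.04 FPKM with PBS and 3.52 to 4.14 FPKM with rhSema3C (log2 fold change 0.37, adjusted p = 0.0023). The part of these markers in the results on the sterol enzymes was not tested, and a change in RNA per cell cannot be told apart from a change in the make-up of the culture.

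SQLE (ENSG00000104549), squalene monooxygenase, adds an oxygen to squalene and is a known control point of the pathway. It lies on the plus strand of chromosome 8 of GRCh38 from 124998497 to 125022283. SQLE measured 39.1, 36.1 and 35.6 FPKM in PBS replicates 1, 2 and 3 and 72.5, 71.6 and 69.7 FPKM in rhSema3C replicates 1, 2 and 3. The groups were far apart beside their spread, with means of 36.9 ± 1.9 and 71.2 ± 1.43 FPKM (SD, n = 3 per group). SQLE thus rose 1.8-fold (95% interval 1.68 to 1.92, adjusted p = 1.1e-12), which is 0.85 ± 0.047 (standard error) on the log2 scale.

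LSS (ENSG00000160285), lanosterol synthase, folds the oxidised squalene into the ring system of lanosterol. The gene is on the minus strand of chromosome 21 from 46188141 to 46228822. LSS measured 41.0, 43.0 and 41.8 FPKM in the PBS replicates and 60.0, 58.9 and 61.7 FPKM in the rhSema3C replicates. Every rhSema3C value was higher, but the rise was the smallest among the 8 members that passed, 1.34-fold (95% interval 1.26 to 1.42, log2 fold change 0.42, standard error 0.042, adjusted p = 1.8e-08).

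CYP51A1 (ENSG00000001630) takes a methyl group off lanosterol and is the only cytochrome P450 among the 9. It is on the minus strand of chromosome 7 from 92112153 to 92134803. CYP51A1 measured 45.2, 43.1 and 45.0 FPKM with PBS and 104, 113 and 109 FPKM with rhSema3C. The lowest treated sample stood above every control by more than the spread within either group. The rise was 2.28-fold (95% interval 2.14 to 2.43, adjusted p = 2e-15), or 1.19 ± 0.045 (standard error) on the log2 scale, and 98.0% of the genes tested had a lower value.

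TM7SF2 (ENSG00000149809) encodes the sterol reductase that removes the double bond left after demethylation, a reaction that LBR also catalyses. It is on the plus strand of chromosome 11 from 65111845 to 65116384. TM7SF2 was expressed at a low level, at 8.5, 9.25 and 7.02 FPKM with PBS and 12.3, 12.3 and 12.7 FPKM with rhSema3C. PBS replicate 3 was the lowest sample, and the coefficient of variation of FPKM was 13.7% with PBS against 1.97% with rhSema3C. On the log2 scale the rise was 0.49 with the largest standard error of the 9 members, 0.085 (adjusted p = 6e-05), and it was 0.38 without PBS replicate 3.

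MSMO1 (ENSG00000052802), methylsterol monooxygenase, starts the removal of the remaining methyl groups. It is on the plus strand of chromosome 4 from 165327667 to 165343164. MSMO1 measured 61.4, 53.4 and 55.2 FPKM in the PBS replicates and 164, 175 and 158 FPKM in the rhSema3C replicates. The lowest treated sample was far above the highest control, and the means were 56.7 ± 4.18 and 166 ± 8.82 FPKM (SD, n = 3 per group). The fold change of 2.72 (95% interval 2.52 to 2.94) was the largest of the arm, at 1.44 on the log2 scale (standard error 0.054, adjusted p = 3.1e-14), with 98.9% of the genes tested below it.

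NSDHL (ENSG00000147383) encodes the dehydrogenase that follows MSMO1 in the same demethylation. It is on the plus strand of chromosome X from 152830967 to 152869363. NSDHL measured 41.8, 42.1 and 37.8 FPKM with PBS and 58.8, 59.6 and 63.7 FPKM with rhSema3C. The groups did not overlap, and the rise was 1.39-fold (95% interval 1.29 to 1.5, log2 fold change 0.48, standard error 0.054, adjusted p = 8.7e-08).

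EBP (ENSG00000147155), the sterol isomerase, is also on the plus strand of chromosome X, from 48521799 to 48528710. On the scale of counts scaled to the TMM-adjusted library size (CPM), EBP measured 59.0, 58.7 and 56.5 with PBS and 59.4, 59.2 and 56.4 with rhSema3C. The groups overlapped on this scale, and the log2 fold change was 0.01 (95% interval -0.11 to 0.12, adjusted p = 0.94). The FPKM values, without the TMM factor, were 31.4, 30.9 and 30.1 with PBS and 33.7, 33.7 and 32.2 with rhSema3C, and on that scale the groups did not overlap. With limma on log2(FPKM + 1) the log2 fold change of EBP was 0.11 (adjusted p = 0.039) while the median of all genes tested was 0.09. With values rescaled to TPM both EBP and the median stood at 0.23. Relative to that median, EBP lay between -0.08 with all genes of the table in the fit and 0.11 with genes of a mean FPKM of at least 5. The adjusted p of EBP in these edgeR fits, 0.96 and 0.057, tests its own log2 fold change against no change. Its difference from the median was not tested.

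SC5D (ENSG00000109929) encodes the desaturase that introduces a double bond after the isomerase step. It is on the plus strand of chromosome 11 from 121292681 to 121308630. SC5D measured 4.18, 4.15 and 3.92 FPKM with PBS and 8.51, 9.69 and 8.27 FPKM with rhSema3C. The treated samples were all higher, with rhSema3C replicate 2 above the others. The rise was 2.01-fold (95% interval 1.83 to 2.2, adjusted p = 9.3e-12), or 1.01 ± 0.063 (standard error) on the log2 scale, close to the fold of 2 used as a threshold, and it was 0.94 without rhSema3C replicate 2.

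DHCR7 (ENSG00000172893), the reductase of the last step on the route through SC5D, is on the minus strand of chromosome 11 from 71428193 to 71452868. DHCR7 measured 80.7, 81.1 and 79.1 FPKM with PBS and 142, 129.6 and 138 FPKM with rhSema3C. It was the highest member in each PBS sample, and the treated samples all exceeded them. The rise was 1.58-fold (95% interval 1.49 to 1.69, log2 fold change 0.66, standard error 0.044, adjusted p = 2.2e-11).

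For each of the 8 members that rose, the exact two-sided permutation test over samples gave p = 0.1, which 3 against 3 cannot go below, and for EBP on CPM it gave p = 0.7. Counts of overlapping genes were small beside those of the members. The largest were those of AF196969, on the strand of EBP, at no more than 1.29% of the EBP counts, and of AP002387, antisense to DHCR7, at no more than 0.978% of the DHCR7 counts. LSS and CYP51A1 also have antisense neighbours, at no more than 0.129% and 0.144% of their counts, and CYP51A1 overlaps AC000120 on its own strand, at no more than 0.697%. Whether the counting used strand is not given in the sources used here.

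The summed level of the 9 enzymes was 353, 343 and 336 FPKM in the PBS replicates and 656, 663 and 653 FPKM in the rhSema3C replicates. The means differed 1.91-fold (343.9 ± 8.86 and 657 ± 5.25 FPKM, SD, n = 3 per group), and 1.75-fold on CPM, which includes the TMM factor and is not scaled to gene length. The samples of each group were close together in both sums (two-sided exact permutation test, p = 0.1). Within the sum, the share of MSMO1 went from 16.5 ± 0.908% to 25.2 ± 1.14% and that of CYP51A1 from 12.9 ± 0.442% to 16.5 ± 0.572% (SD, n = 3 per group). The share of EBP went from 8.95 ± 0.0655% to 5.05 ± 0.111%, although its fitted log2 fold change was 0.01. A share falls where a member rises less than the sum, so a lower share does not by itself mean lower expression. DHCR7, which rose 1.58-fold, held 23.4 ± 0.445% with PBS and 20.8 ± 1.11% with rhSema3C. SQLE held a similar share in both groups, 10.7 ± 0.294% and 10.8 ± 0.201% (two-sided exact permutation test, p = 0.6). For the other 8 members the shares of the groups did not overlap (two-sided exact permutation test, p = 0.1 for each). The shares add up to a fixed total and restate the unequal changes given above, so they are not separate results. How often shares within other sets of genes separate was not computed.

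The order of the levels also changed. With PBS it ran DHCR7, MSMO1, CYP51A1, LSS, NSDHL, SQLE, EBP, TM7SF2 and SC5D, and LSS, NSDHL and SQLE overlapped their neighbours in that row, while the others did not. With rhSema3C it ran MSMO1, DHCR7, CYP51A1, SQLE, NSDHL, LSS, EBP, TM7SF2 and SC5D, and NSDHL and LSS were the pair that overlapped. MSMO1 thus stood above DHCR7 after treatment. Its FPKM was 0.761, 0.658 and 0.698 of that of DHCR7 in the PBS replicates and 1.15, 1.35 and 1.14 times that of DHCR7 in the rhSema3C replicates.

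The order depends on the gene length behind the FPKM values, as do the FPKM sum and the shares above. The length that the deposited counts and FPKM imply for SC5D was 10268 to 10330 bases, 4.19 times its longest GENCODE v29 transcript of 2456 bases. For the other members that ratio lay between 1.02 for EBP and 1.68 for TM7SF2. With CPM per kilobase of the longest transcript, an alternative added after the data were seen, SC5D stood above TM7SF2 with PBS (17.9 against 14.5) and above both EBP and TM7SF2 with rhSema3C (35.9 against 32.9 and 20.3). CYP51A1 moved below LSS and SQLE with PBS (52.0 against 65.6 and 57.3), without overlap, and LSS stood apart from NSDHL with rhSema3C (87.7 against 62.4). On that scale DHCR7 at 209.6 ± 9.91 and MSMO1 at 207 ± 11.2 overlapped with rhSema3C (SD, n = 3), so which of the pair was higher after treatment depended on the length used. The fold change of a single gene between groups does not contain the length.

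Each enzyme was then set against the enzyme of the step before, as a log2 ratio of FPKM within a sample, which does not depend on library scaling. Neighbouring steps moved unequally, in alternating directions for most of the arm. The ratio of CYP51A1 to LSS was 0.14, 0.0 and 0.11 with PBS and 0.8, 0.94 and 0.82 with rhSema3C, a difference of 0.77. That of MSMO1 to TM7SF2 was 2.85, 2.53 and 2.98 with PBS and 3.73, 3.83 and 3.63 with rhSema3C, a difference of 0.95. In both pairs the later enzyme was among the members with the largest rises.

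In the opposite direction, the ratio of NSDHL to MSMO1 was -0.55, -0.34 and -0.55 with PBS and -1.48, -1.56 and -1.31 with rhSema3C. This was the largest fall of a ratio, by 0.97. The ratio of EBP to NSDHL fell by 0.47, from -0.41, -0.44 and -0.33 to -0.8, -0.82 and -0.99. That of SC5D to EBP had the largest rise, 1.0, from -2.91, -2.9 and -2.94 to -1.99, -1.8 and -1.96. The remaining differences were -0.43 for LSS to SQLE, -0.69 for TM7SF2 to CYP51A1 and -0.34 for DHCR7 to SC5D. For all 8 ratios the groups did not overlap (two-sided exact permutation test, p = 0.1 for each, and 0.1 after adjustment over the 8). That is the smallest p this design allows, so none could pass 0.05. Each difference restates the fold changes of the pair given above, and neighbouring ratios share a member, so the ratios are not separate results. How often the ratios of other gene pairs separate was not computed.

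The promoters of the members were read from RefSeq sequences (GRCh38.p14) and searched on both strands, in the 250 bases before each RefSeq start, for TCACNCC, the core of a sterol regulatory element, CCAAT, the NF-Y box, GGGCGG, the Sp1 box, and CACGTG, an E-box. SREBPs are known to act together with NF-Y and Sp1 at sterol-responsive promoters. Sequences were found for 8 members, and SQLE was not matched. Below are MSMO1, which had the largest rise, NSDHL, the other member that held TCACNCC, and LSS, which had the smallest rise among those that passed and held the most Sp1 boxes. Each stretch runs 5′ to 3′ on the strand of the gene and was ended before the first base that any GENCODE v29 transcript counts as exon. The regions are chr4:165327419-165327622 on the plus strand, chrX:152830813-152830966 on the plus strand and chr21:46228825-46229024 on the minus strand, and capitals mark the sterol element core and the NF-Y and Sp1 boxes on either strand.
MSMO1: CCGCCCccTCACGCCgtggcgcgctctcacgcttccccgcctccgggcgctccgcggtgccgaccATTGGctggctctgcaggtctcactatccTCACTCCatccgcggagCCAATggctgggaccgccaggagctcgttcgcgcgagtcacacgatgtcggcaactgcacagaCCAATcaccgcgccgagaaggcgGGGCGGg
NSDHL: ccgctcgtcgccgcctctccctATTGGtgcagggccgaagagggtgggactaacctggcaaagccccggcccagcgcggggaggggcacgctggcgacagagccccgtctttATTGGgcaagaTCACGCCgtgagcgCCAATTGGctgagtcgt
LSS: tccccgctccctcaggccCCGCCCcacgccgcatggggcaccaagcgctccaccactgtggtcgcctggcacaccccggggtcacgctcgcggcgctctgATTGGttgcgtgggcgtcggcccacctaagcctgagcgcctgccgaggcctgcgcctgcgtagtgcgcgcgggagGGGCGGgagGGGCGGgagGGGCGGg

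In the full 250 bases MSMO1 held 2 matches to TCACNCC, 4 CCAAT boxes and 2 Sp1 boxes, and NSDHL held 1, 5 and 0. A pair of the CCAAT boxes of NSDHL overlap on opposite strands. LSS held 0, 1 and 6. DHCR7 and SC5D have 2 RefSeq starts each, so the 8 members have 10 promoters. TCACNCC was in 2 of the 10, against 13.1% of all 35116 promoters and 13.8% of the 14421 promoters of genes tested. CCAAT was in 8 of the 10 (32.0% of all, 33.1% of genes tested) and was found in 7 of the 8 members. CYP51A1 held none, but its window lies wholly within the gene as the table gives it, and so do both windows of DHCR7. These windows are thus not upstream of the annotated starts. Windows of other members ran partly into their genes. EBP, which did not pass the test, held 3 CCAAT boxes, and its window overlaps an exon of another GENCODE v29 transcript. GGGCGG was also in 8 of the 10 promoters (42.6% of all, 64.0% of genes tested), and CACGTG in 2, both of SC5D (6.34% of all, 8.36% of genes tested). The SC5D windows overlap and share the same CACGTG site and the same CCAAT box, so each of those sites is counted in both promoters. A match describes the letters in these windows and shows no binding.

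The terms in the deposited table put all 9 members in the KEGG pathway of steroid biosynthesis, in the Reactome pathway of cholesterol biosynthesis and in the endoplasmic reticulum. These pathways hold 16 and 24 of the genes tested, and the endoplasmic reticulum terms hold 10.6% of them. Of the 9, 7 are classed as oxidoreductases against 1.74% of the genes tested, and the others are LSS, a cyclase, and EBP, an isomerase. The Reactome set of genes activated by SREBF held 6 of the 9, against 0.296% of the genes tested. The members outside it were MSMO1, NSDHL and EBP. These include the member with the largest rise and the member that did not pass the test.

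The rest of the pathway was described with lists of genes. In the mevalonate arm, 7 of 9 genes rose and 2 fell, beside 32.2% higher and 30.8% lower of all genes tested. Of the 9, 6 rose more than 2-fold, beside 3.23% of all genes tested. The median log2 fold change was 1.11, against 0.66 for the 9 members after squalene and 0.02 for all genes tested. HMGCS1, which makes HMG-CoA, measured 40.2, 38.0 and 39.0 FPKM with PBS and 194, 208 and 195 FPKM with rhSema3C, a rise of 2.24 ± 0.044 (standard error) on the log2 scale (adjusted p = 4.7e-20). FDFT1, which makes squalene itself, rose by 0.82 on the log2 scale, close to the 0.85 of SQLE in the next step. The 2 genes that went against the list were the kinases of mevalonate and phosphomevalonate. PMVK measured 14.0, 14.9 and 16.3 FPKM with PBS and 12.8, 11.8 and 11.3 FPKM with rhSema3C and fell by 0.43 on the log2 scale (adjusted p = 0.00074). MVK fell by 0.18 (adjusted p = 0.0043), a call lost in 5 alternative settings, and it was at 0.05 with values rescaled to TPM.

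Among 5 other proteins of the arm after squalene, 3 rose and 2 fell, beside 32.2% higher and 30.8% lower of all genes tested, with a median of 0.23. None rose more than 2-fold, beside 3.23% of all genes tested. HSD17B7, the reductase that completes the demethylation begun by MSMO1 and NSDHL, rose from 3.99 ± 0.314 to 7.12 ± 0.232 FPKM (SD, n = 3 per group, log2 fold change 0.73, adjusted p = 4e-08). LBR, which shares the reaction of TM7SF2, rose by 0.24, and ERG28, a scaffold for the demethylating enzymes, by 0.23. EBPL, a relative of EBP without known isomerase activity, fell by 0.34 (adjusted p = 0.03), and that call was lost in 6 settings.

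**Figure D1:**
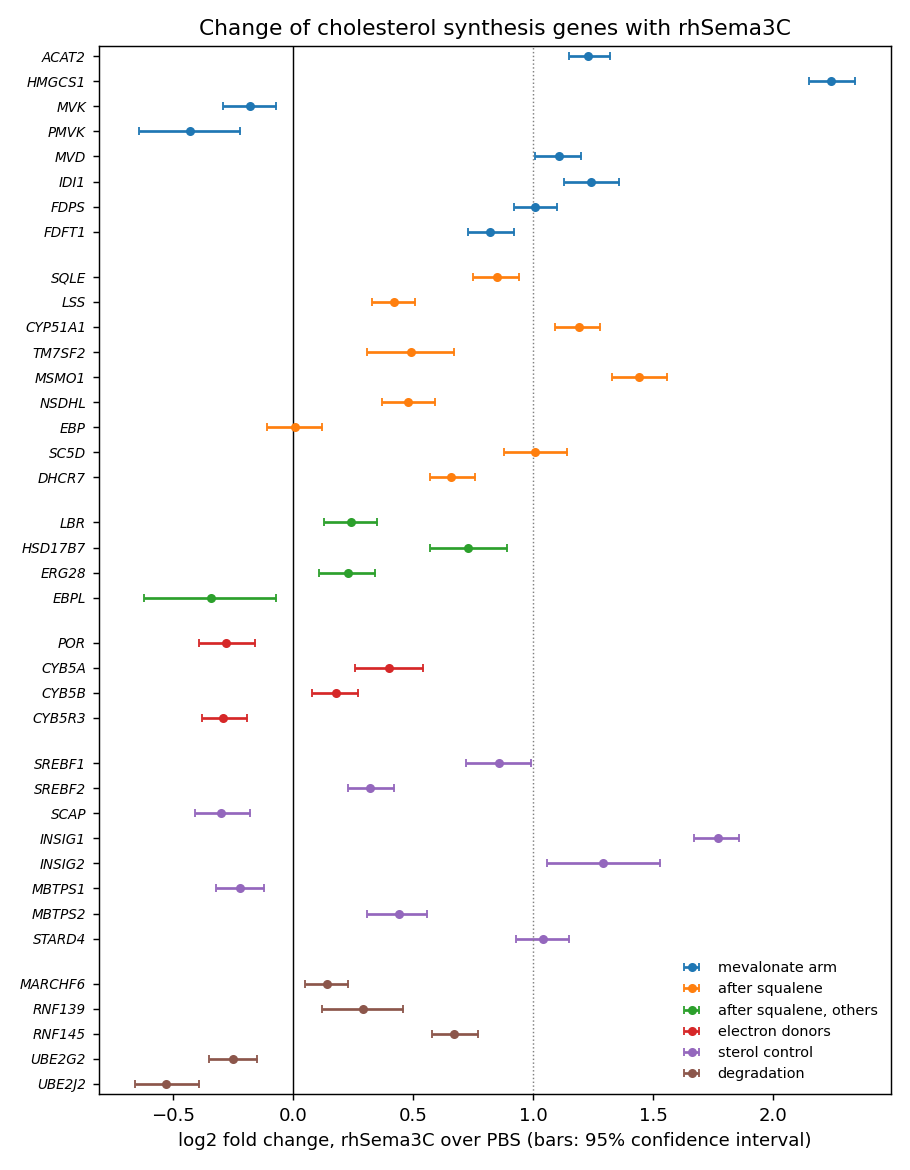
Log2 fold change with rhSema3C against PBS (horizontal axis, points, with 95% confidence intervals as bars) for the 9 enzymes after squalene and for genes of 5 related lists, by colour, with a dotted line at a fold of 2. MSMO1, CYP51A1 and SC5D reach or pass the dotted line among the 9, at 1.44, 1.19 and 1.01, EBP lies at 0.01, and HMGCS1 of the mevalonate arm (2.24) lies farthest to the right.

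Of 10 genes of sterol control and uptake, 8 rose and 2 fell, beside 32.2% higher and 30.8% lower of all genes tested. More than 2-fold rises were found for 4 of them, beside 3.23% of all genes tested. The median was 0.66, beside 0.02 for all genes tested. INSIG1, which holds the SREBP complex in the endoplasmic reticulum, measured 49.8, 45.8 and 45.4 FPKM with PBS and 174, 172 and 169.9 FPKM with rhSema3C. It rose by 1.77 ± 0.046 (standard error) on the log2 scale (adjusted p = 4.1e-18), and INSIG2, which has the same role, by 1.29. The SREBP genes SREBF1 and SREBF2 rose by 0.86 and 0.32, and STARD4, which carries cholesterol between membranes, by 1.04. SCAP, the escort of the SREBPs, fell by 0.3 (adjusted p = 0.00014). MBTPS1, a protease that releases them, fell by 0.22, but its value was 0.01 with TPM.

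Outside these lists, the genes whose log2 CPM over the 6 samples was most like that of SQLE were AC009412, a gene named only by a clone (Pearson r = 0.9994), FKBP5, a co-chaperone of steroid receptors (r = 0.9992), and PHGDH, which starts serine synthesis (r = 0.9991). Their log2 fold changes were 0.86, 0.43 and 0.92. Among the members, r was 0.998 for MSMO1, 0.993 for CYP51A1, 0.989 for SC5D and DHCR7, 0.975 for LSS, 0.969 for NSDHL, 0.911 for TM7SF2 and 0.169 for EBP. The samples form the 2 treatment groups, so genes that differ between them have a high r by that alone, and r was above 0.95 for 14.4% of the 6923 genes compared.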

How the data were processed

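RNA sequencing covered 3 rhSema3C-treated and 3 PBS-treated samples of LX-2 cells, grouped by the sample labels, with libraries made by an mRNA kit. Per the methods of the study, libraries were run on an Illumina NovaSeq instrument. The authors deposited raw whole-number read counts for every gene and, beside them, FPKM values that they had scaled to gene length and library size. The aligner, counter and genome build are not given in the sources used here. Gene positions in the table match GRCh38.

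Counts were fitted with edgeR 4.0.16 (quasi-likelihood, robust, TMM factors, R 4.3.3) over the 14178 genes whose FPKM averaged 0.5 or more, with Benjamini-Hochberg adjustment over all of them. The common biological coefficient of variation was 0.117. This count test took the place of the Cufflinks comparison named in the methods of the study, which needs reads. Alternatives were median-of-ratios factors, library size alone, DESeq2 1.42.0, limma 3.58.1 on log2(FPKM + 1), log2(TPM + 1) and log2(FPKM + 0.1), all genes, a minimum mean FPKM of 5, the replicate number as a block, and fits without each sample. Levels were also taken as TPM, and ratios as CPM. The 9 members and the lists were chosen with earlier results of these data known. The genes named were the members, the largest rise and fall of each list and genes whose call went against their list, other list members for context, and the 3 other genes averaging 5 FPKM or more whose log2 CPM correlated best with that of SQLE. Intervals and p-values do not cover errors shared by the counting of all samples. No molecular identifiers were described. Results for some single genes of the lists, which stay in the counts over the lists, are not reported here.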

Additional observations from a re-analysis of the deposited data

How the results depend on the processing

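Of 396 values recomputed for 32 results, 365 kept their direction and their side of the threshold or stayed within 1.5-fold of the count. The 365 include the 8 ratios taken on TMM-scaled counts. These were fixed in advance, since a ratio within a sample does not depend on library scaling. The order of the members entered only as the number of neighbouring pairs without overlap. The order itself changed with the gene length used, as given above, and that change is not among the values that moved. The 6 that reversed were all of EBP, from 0.01 to -0.01 with median-of-ratios factors, DESeq2 and all genes, and with samples left out, where EBP lay between -0.01 and 0.03. The 8 rises were called in each alternative, and the log2 fold changes ranged from 1.4 to 1.67 for MSMO1, from 1.16 to 1.41 for CYP51A1, from 0.94 to 1.18 for SC5D and from 0.4 to 0.64 for LSS. EBP passed the threshold with limma on log2(FPKM + 1) and log2(FPKM + 0.1), at 0.11 in both (adjusted p = 0.039), and on log2(TPM + 1), at 0.23 (adjusted p = 0.00073). The median of all genes moved from 0.02 to 0.13 with library size alone and to 0.23 with TPM. The number of members above 2-fold was 3, but 2 with median-of-ratios factors, DESeq2, limma on log2(FPKM + 1), all genes, without PBS replicate 3 and without rhSema3C replicate 2, where SC5D fell to between 0.94 and 0.99, and 4 with TPM. Among the lists, the falls in the mevalonate arm went from 2 to 1 with library size alone, the 3 limma fits and a mean FPKM of at least 5. Those among the other enzymes after squalene went from 2 to 0 with library size alone, TPM and the stricter filter, to 1 with the other 2 limma fits and all genes, and to between 1 and 2 with samples left out. The electron donors had 1 rise in place of 2 with the stricter filter, which removed CYB5A, and 0 falls in place of 2 with TPM. The sterol control list had 1 fall in place of 2 with log2(FPKM + 1) and log2(FPKM + 0.1), and 0 with TPM. The causes were not tested. Same-numbered samples did not deviate together (correlations from -0.0968 to -0.0394), so the numbers were not taken as pairs. With a replicate block 8 members were higher and 0 lower, and the falls among the other enzymes after squalene went from 2 to 1. A log2 change within -0.11 to 0.12 for EBP could not be told from 0 at this depth and replication.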

Other observations

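Of 4 proteins that hand electrons to the sterol enzymes, 2 rose and 2 fell, beside 32.2% higher and 30.8% lower of all genes tested, with a median log2 fold change of -0.05 beside 0.02. POR, the reductase that supplies SQLE and CYP51A1, measured 13.3, 13.4 and 12.2 FPKM with PBS and 11.7, 11.3 and 11.6 FPKM with rhSema3C, and fell by 0.28 on the log2 scale (adjusted p = 0.00015). CYB5R3, the reductase of cytochrome b5, fell by 0.29 (adjusted p = 9e-06). The cytochrome b5 genes CYB5A and CYB5B rose by 0.4 and 0.18. With TPM neither fall passed the threshold.

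Of 6 genes for the degradation of sterol enzymes, 3 rose and 3 fell, beside the same 32.2% and 30.8%, with a median of -0.05. RNF145, a ubiquitin ligase of the endoplasmic reticulum, rose most, from 18.1 ± 0.538 to 31.0 ± 0.167 FPKM (SD, n = 3 per group, log2 fold change 0.67, adjusted p = 3.7e-11). RNF139 rose by 0.29, and MARCHF6, the ligase known to degrade the SQLE protein, by 0.14 (adjusted p = 0.0086). The log2 fold changes were -0.53 for UBE2J2, the largest fall, and -0.25 for UBE2G2. With TPM the fall of UBE2G2 did not pass.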
